A study of Mus musculus with 72 samples.

Results

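The brain transcriptome of Klotho-deficient mice was compared with that of wild-type mice after both had received neuromuscular electrical stimulation (NMES), in which a current passed through the skin makes leg muscle contract without voluntary effort. The comparison holds every brain library labelled heterozygous and stimulated (KlHET NMES, n = 12) and every brain library labelled wild-type and stimulated (WT NMES, n = 6), 18 of the 72 libraries of the series. KlHET mice carried the tm1Lex allele on a mixed strain background, with 1 copy of Kl disrupted. WT mice were bred internally, and their strain background was not given. All mice were 2 months old. Stimulated mice received 9 mA in 5 sessions on alternate days, with 2 sets of 10 stimulations per leg under 2.5% isoflurane, and brain was taken 24 h after the last session. Control mice of the same genotypes (12 KlHET control, 6 WT control) received isoflurane for 15 min and no current. WT animals carried identifiers beginning with A and KlHET animals identifiers beginning with J, so genotype and animal series cannot be told apart in any comparison given here. Each library came from a separate mouse, and muscle of the same 18 stimulated mice was sequenced as well.

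Klotho is a membrane protein that partners with fibroblast growth factor receptors and can be shed into blood and cerebrospinal fluid as a hormone. In brain it is made mostly by the choroid plexus, the secretory tissue of the ventricles, and at a lower level by neurons, and its loss accelerates many features of ageing in mice. Microglia, the resident macrophages of brain, survey the tissue and take up debris, and they use receptors such as Trem2 and the complement receptor Itgam to do so. The question addressed was whether brain differed between the genotypes once both had been stimulated.

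Brain libraries held 16.97 to 26.47 M reads in KlHET NMES and 17.04 to 27.99 M in WT NMES mice, so that 1 CPM (1 read of a gene per M reads of its library) rested on at least 16.97 reads. The tissue is labelled as brain, the methods specify prefrontal cortex, and the regional content of the pieces varied. Markers of olfactory bulb summed to between 27.2 and 807 CPM in KlHET NMES and between 35.4 and 518 CPM in WT NMES libraries. Ttr, which encodes transthyretin and marks choroid plexus, was above 100 CPM in 4 of 12 KlHET NMES libraries and in 0 of 6 WT NMES libraries. Transcripts of the mitochondrial genome made up 2.69 to 5.24% of KlHET NMES and 4.26 to 5.53% of WT NMES libraries. Both groups mixed the sexes, with Xist above the Y-linked genes in 8 of 12 and 3 of 6 libraries. WT NMES replicate 6, in which the Y-linked genes summed to 100 CPM, also held 9.27 CPM of Xist, whereas no other brain library with Y-linked reads exceeded 0.154 CPM.

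Kl itself (mm10, chromosome 5, 150952607 to 150993817) lay between 2.41 and 7.48 CPM (median 3.39) in WT NMES and between 1.12 and 19.3 CPM (median 2.74) in KlHET NMES brains. The groups overlapped, and the KlHET NMES group was wider, with replicates 3, 6 and 9 at 14.6, 12.3 and 19.3 CPM. These were the 3 libraries with the most Ttr, at 849, 891 and 895 CPM. Over all 18 libraries the mean log2 difference between KlHET NMES and WT NMES was -0.04 ± 0.41 (SE, exact permutation test, 2-sided p = 0.937). Among the libraries with at most 100 CPM of Ttr (6 WT NMES, 8 KlHET NMES), a choice made after the data were seen, Kl was lower in KlHET NMES by -0.78 ± 0.26 on the log2 scale, or 0.581-fold (exact permutation p = 0.00799, adjusted p = 0.048 over the 6 comparisons of Kl given here). With a limit of 10 CPM (5 and 7 libraries) the difference was -0.64 ± 0.23, or 0.641-fold (exact permutation p = 0.024, adjusted p = 0.072). In control mice the same limits gave -0.26 ± 0.30 (6 and 8 libraries, exact permutation p = 0.353) and -0.05 ± 0.27 (5 and 7 libraries, exact permutation p = 0.819), against 0.38 ± 0.44 over all control libraries (exact permutation p = 0.499). The limit of 100 CPM left out KlHET NMES replicates 3, 5, 6 and 9, which held the highest Kl of their group, 4.797 to 19.3 CPM. Leaving these out could only lower the KlHET NMES mean, and the permutation p does not take this into account. The limit left out no WT NMES library and kept WT NMES replicate 5, at 94.2 CPM of Ttr. That library held 7.48 CPM of Kl, the highest of its group, and the limit of 10 CPM left it out. Of the 6 comparisons of Kl only the first of those with a limit on Ttr passed after adjustment. Whether it differed from that in controls was not tested, and the genotype names rest on the labels.

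**Figure D1:**
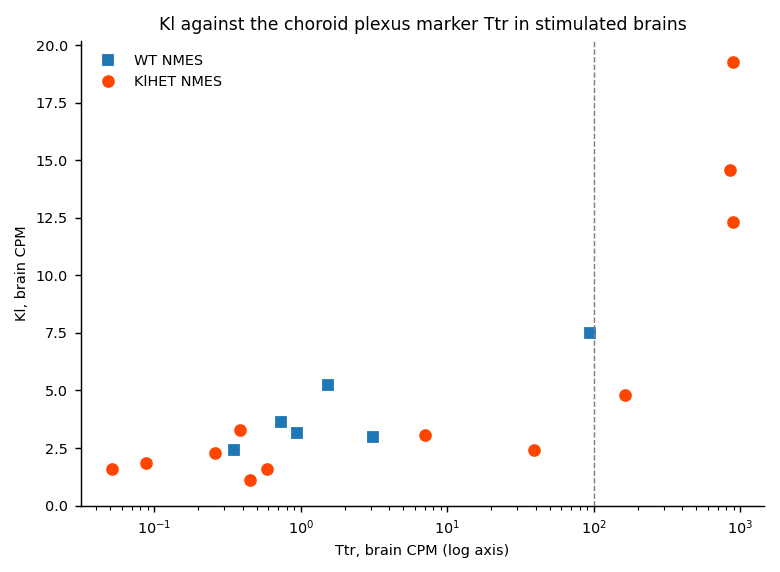
Kl against Ttr in the stimulated brain libraries, in CPM, with a linear Kl axis and a log Ttr axis. Squares are WT NMES and circles KlHET NMES mice, and the dashed line marks 100 CPM of Ttr. KlHET NMES replicates 3, 6 and 9, at 849 to 895 CPM of Ttr, hold 12.3 to 19.3 CPM of Kl, above every WT NMES library.

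After NMES, 15 of 15400 genes tested differed between KlHET and WT brain at an adjusted p below 0.05 (0.0974%), 9 of them higher (0.0584%) and 6 lower (0.039%) in KlHET. The genes that were higher were Tmem181b-ps, Erich5, Nnt, Dynlt1b, Tmem181c-ps, Tmem230, A930033H14Rik, Gabra2 and Cfap54. Those that were lower included Rpl30, Tmem267, Trem2, 2610035D17Rik and Itgam. Differences were tested with limma on log2(CPM + 0.5), where a change at low CPM is understated, and p-values were adjusted by Benjamini-Hochberg. At an unadjusted p below 0.05, 321 genes were higher (2.08%) and 336 lower (2.18%), a total of 657 where 770 would be expected by chance. In control mice, of which none is in the stimulated comparison, 11 genes passed (0.0714%), 8 higher (0.0519%) and 3 lower (0.0195%), and 1609 (10.4%) lay at an unadjusted p below 0.05, 4.79% higher and 5.66% lower. The genotype difference of stimulated mice was not shown to differ from that of control mice for any gene: 0 of 15400 passed in limma, where 454 (2.95%) had an unadjusted p below 0.05 (1.68% higher, 1.27% lower), and 0 passed by edgeR, DESeq2 or voom.

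**Figure D2:**
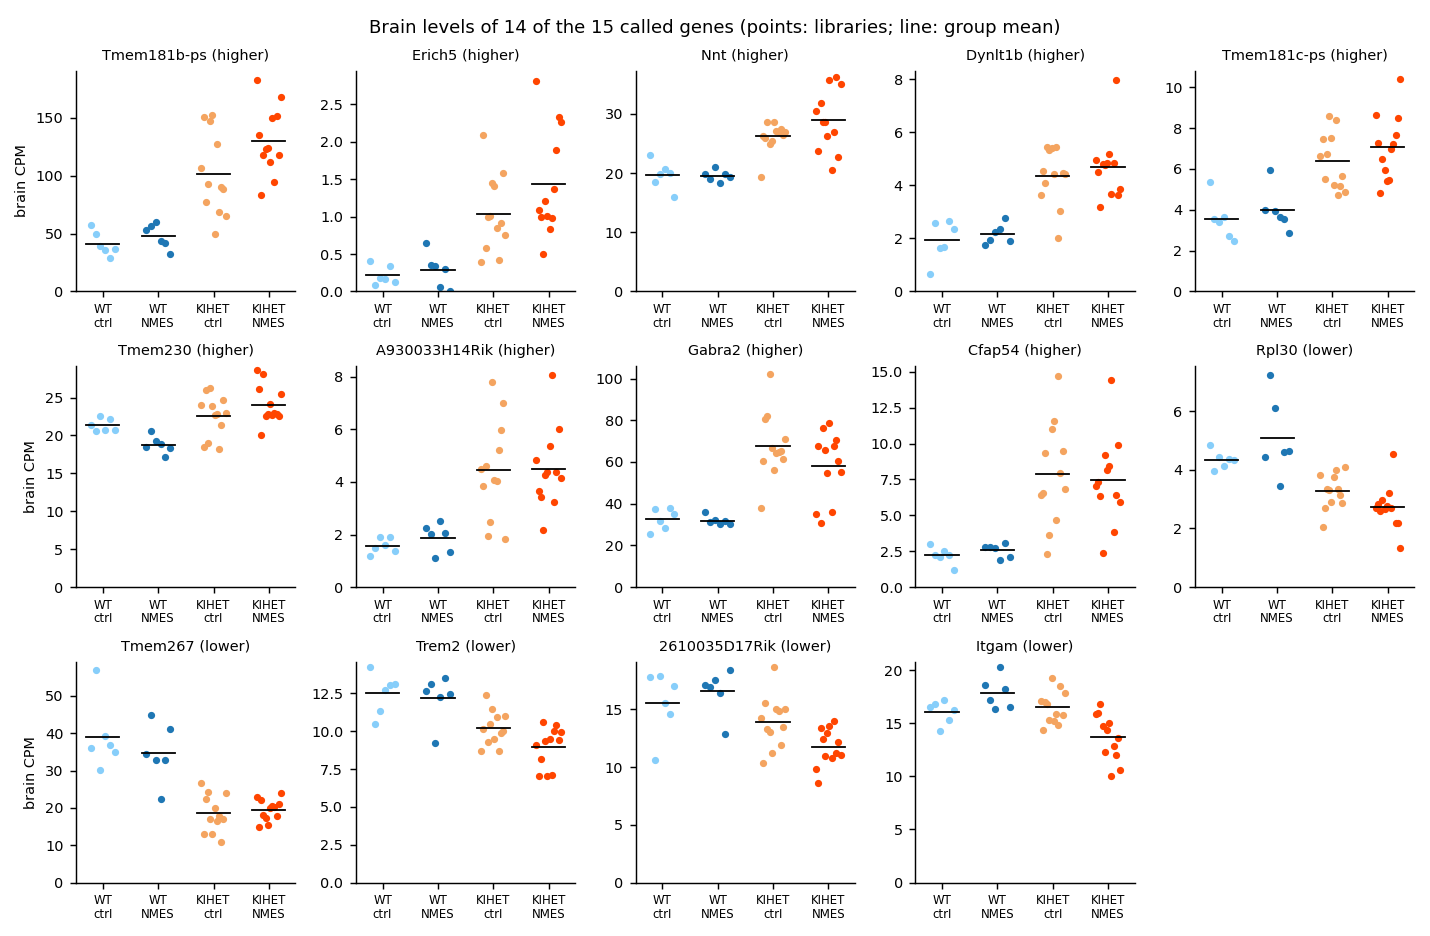
Brain CPM of 14 of the 15 genes that passed between KlHET NMES and WT NMES, on linear axes from 0, with 1 point per mouse in each of the 4 groups and a line at each group mean. The groups of stimulated mice do not overlap for Tmem181b-ps and Dynlt1b, and WT NMES and KlHET NMES medians are 12.6 and 9.39 CPM for Trem2.

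Trem2, the lipid-sensing receptor of microglia that signals through Tyrobp, was lower in stimulated KlHET brain. It lay between 9.24 and 13.6 CPM (median 12.6) in WT NMES and between 7.05 and 10.6 CPM (median 9.39) in KlHET NMES mice. WT NMES replicate 3, at 9.24 CPM, was the only WT NMES library inside the KlHET NMES range. The log2 difference was -0.44 ± 0.09 (SE, 0.739-fold, limma adjusted p = 0.0411), and 12 of 12 KlHET NMES libraries lay below the WT NMES mean. Unstimulated mice showed a difference of the same sign that did not pass, -0.31 ± 0.09 (limma adjusted p = 0.256), from a median of 12.9 CPM in WT control to 10.1 CPM in KlHET control mice. The difference between these differences was -0.13 ± 0.13 (unadjusted p = 0.325).

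Itgam encodes CD11b, the alpha chain of complement receptor 3, which microglia and other myeloid cells use for adhesion and phagocytosis. Its level was 16.3 to 20.3 CPM (median 17.7) in WT NMES and 10.03 to 16.8 CPM (median 13.97) in KlHET NMES brains, with an overlap at KlHET NMES replicate 3. The log2 difference was -0.39 ± 0.08 (0.761-fold, limma adjusted p = 0.0463), again with 12 of 12 KlHET NMES libraries below the WT NMES mean. In controls the medians were 16.4 CPM (WT) and 16.3 CPM (KlHET), and the difference was 0.00 ± 0.08. The change in the genotype difference with stimulation was -0.40 ± 0.12 (unadjusted p = 0.00185, adjusted p = 0.999 in limma), so it did not pass over all genes.

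When each of the 36 brain libraries was left out in turn, Trem2 missed the threshold in 13 fits and Itgam in 23, with limma adjusted p-values of up to 0.142 and 0.228. With only the 18 stimulated libraries in the fit they were 0.188 and 0.285. A lower expression of these genes per cell and a smaller number of cells that express them cannot be told apart in RNA of whole tissue.

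Of 29 tested microglia markers, 26 had a negative log2 difference after NMES, 0 passed higher and 2 passed lower, which were Trem2 and Itgam. Their median difference was -0.15, beside 0.00 over all genes tested. In control mice 17 of the 29 were below 0, with a median of -0.03 and 0 passed. Over all genes 0.039% passed lower after NMES, and 50.6% lay above 0. Another 8 markers were lower at an unadjusted p below 0.05 without passing, which makes 10 of 29 beside 2.18% of all genes. They include the lysosomal protease Ctss (-0.29 ± 0.09, from a median of 44.8 to 34.2 CPM), the complement subunit C1qc (-0.24 ± 0.08, 36.4 to 32.0 CPM) and the Fc receptor chain Fcer1g (-0.29 ± 0.11, 5.76 to 4.60 CPM). Cd84, a receptor of the SLAM family, gave -0.33 ± 0.14 and Spi1, the transcription factor PU.1 that specifies myeloid cells, gave -0.27 ± 0.12. Trem2, Itgam, Fcer1g and Cd84 were named by the study for this comparison on these samples. The 10 of 29 is therefore not independent evidence of direction. The 29 markers were also read in the same libraries, so neither the 26 nor the 10 counts separate observations.

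Values also varied among markers known from resting microglia. The log2 difference was -0.28 ± 0.12 for the lysophospholipid receptor Gpr34 (unadjusted p = 0.0264), -0.10 ± 0.06 for the growth factor receptor Csf1r, -0.06 ± 0.09 for the fractalkine receptor Cx3cr1, -0.15 ± 0.11 for the purine receptor P2ry12 and -0.09 ± 0.08 for Tmem119. The last 4 had an unadjusted p above 0.05. Summed over the 29 markers, WT NMES libraries held 710 to 792 CPM (median 756) and KlHET NMES libraries 593 to 806 CPM (median 689), so the groups overlapped. The 3 KlHET NMES libraries with the lowest mean marker level, replicates 12, 8 and 7, also had the smallest mitochondrial shares of the group, at 2.69, 2.86 and 3.20%. The part of library content in the marker difference was not tested. With the mean of the other microglia markers as a covariate, added after the data were seen, the difference was -0.40 ± 0.10 for Trem2 (limma adjusted p = 0.242) and -0.27 ± 0.08 for Itgam (adjusted p = 0.419), so that neither passed.

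**Figure D3:**
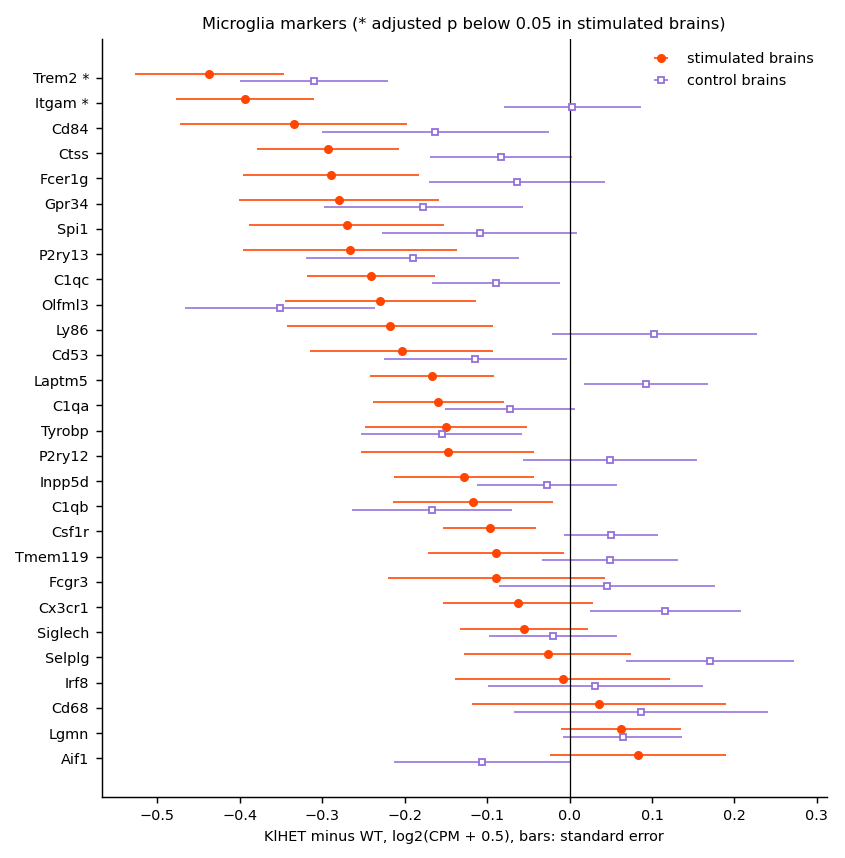
Log2 difference between KlHET and WT brain with its SE for 28 of the 29 tested microglia markers, in stimulated (filled) and in control (open) mice. Of the stimulated values shown 25 lie below 0, and Trem2 and Itgam, at -0.44 and -0.39, passed.

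Neighbouring immune lists held few genes that passed. Of 11 tested markers of border macrophages and blood monocytes, 9 were below 0 after NMES (median -0.30). Of the 11, 1 that is not reported singly passed lower, beside 0.039% of all genes. The class II antigen H2-Aa (-0.64 ± 0.27) and its chaperone Cd74 (-0.52 ± 0.24) were lower at an unadjusted p below 0.05 and did not pass. Summed border macrophage markers ran from 25.3 to 47.7 CPM in WT NMES and from 15.9 to 43.6 CPM in KlHET NMES libraries. Among 23 genes of complement, Fc receptors and phagocytosis, 20 were below 0 (median -0.12) and 2 passed lower, beside 0.039% of all genes. These were again Trem2 and Itgam. Both were named by the study on these samples. Of 17 genes raised in disease-associated microglia, 14 were below 0 (median -0.05), and Trem2 alone passed, beside 0.039% of all genes. In control mice 12 of these 17 were below 0, with a median of -0.08. There 6 of the 11 border macrophage markers and 11 of the 23 complement genes were below 0 (medians -0.04 and 0.00). In controls 0 genes of each list passed. By contrast, the 23 tested genes of the type I interferon response had a median of 0.03 after NMES, with 0 passed and 9 below 0 (8 in controls, median 0.07). Haemoglobin and other blood genes (4 tested) gave a median of -0.46 with 0 passed, and meningeal fibroblast markers were below 0 for 12 of 12 (median -0.30, 0 passed), and whether either moved the immune genes was not tested.

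The sequence before the start of Trem2 and Itgam is shown because both carry the core of the PU.1 site in this window. The 250 bases before each annotated start are from RefSeq (GRCm38.p6, the mm10 assembly), both on the plus strand, and capitals mark GAGGAA or its reverse complement TTCCTC, searched on both strands.
Trem2, chr17:48346151-48346400: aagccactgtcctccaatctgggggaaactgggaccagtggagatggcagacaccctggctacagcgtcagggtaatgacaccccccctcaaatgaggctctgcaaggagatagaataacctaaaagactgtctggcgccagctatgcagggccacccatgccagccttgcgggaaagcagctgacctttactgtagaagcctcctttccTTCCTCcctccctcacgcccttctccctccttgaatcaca
Itgam, chr7:128062390-128062639: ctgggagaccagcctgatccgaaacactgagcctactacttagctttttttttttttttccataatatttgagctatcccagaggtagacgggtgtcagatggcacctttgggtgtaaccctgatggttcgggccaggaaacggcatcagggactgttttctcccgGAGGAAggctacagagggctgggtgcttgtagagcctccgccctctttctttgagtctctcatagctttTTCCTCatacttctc
The Trem2 match begins 40 bases before the start and the Itgam matches 84 and 15 bases before it. The motif occurred in 12 of the 21 tested microglia markers with a sequence (57.1%), beside 25.9% of 27025 genes. A match describes letters and not a bound site. Markers that were lower were not compared with the other markers, so the share says nothing about the genotype difference.

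The largest block of called genes lay on chromosome 17. Tmem181b-ps, a transcribed pseudogene of a transmembrane protein (6439002 to 6450994), lay between 32.1 and 59.9 CPM (median 48.3) in WT NMES and between 83.7 and 183 CPM (median 123) in KlHET NMES brains. The groups did not overlap, which held for 4 of 15400 genes (0.026%) after NMES and for 10 in controls (0.0649%). The log2 difference was 1.42 ± 0.20 (2.68-fold, limma adjusted p = 0.000605) and was 1.21 ± 0.20 in controls (adjusted p = 0.00466). Dynlt1b, a light chain of the dynein motor whose annotation overlaps that of Tmem181b-ps (6429530 to 6440500), rose from 1.76 to 2.75 CPM in WT NMES to 3.19 to 7.96 CPM in KlHET NMES, also with no overlap. Its difference was 0.93 ± 0.17 (limma adjusted p = 0.0127) and 1.01 ± 0.17 in controls. Tmem181c-ps, a further copy (6610103 to 6620925), lay at 2.88 to 5.97 CPM in WT NMES and 4.84 to 10.4 CPM in KlHET NMES, a difference of 0.74 ± 0.15 (adjusted p = 0.0362). Tmem181a, the coding gene beside them, was higher by 0.31 (unadjusted p = 0.00148) and did not pass. These genes have near-identical copies, and counting by strand was not stated, so the share of reads that belongs to each is uncertain.

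On chromosome 15, Rpl30 and Erich5 lie 10.0 kb apart and differed in opposite directions. Rpl30, a protein of the large ribosomal subunit (34440505 to 34443276), lay between 3.47 and 7.25 CPM (median 4.62) in WT NMES and between 1.34 and 4.55 CPM (median 2.69) in KlHET NMES. KlHET NMES replicate 9 was the only library of its group inside the WT NMES range, and the difference was -0.80 ± 0.13 (0.573-fold, limma adjusted p = 0.00513). In controls it was -0.40 ± 0.13 (adjusted p = 0.318). Ribosomal protein genes have many processed copies in the genome, so this level is uncertain. Erich5, a glutamate-rich protein of unclear role (34453312 to 34473892), was close to the limit of detection, with 0 to 0.646 CPM in WT NMES (at most 11 reads) and 0.497 to 2.81 CPM in KlHET NMES (11 to 50 reads). Its difference was 1.28 ± 0.22 (limma adjusted p = 0.00806) and 1.03 ± 0.22 in controls (adjusted p = 0.0557). Between Erich5 and Pop1 lies Rida, an enzyme that clears reactive imines, which was higher by 0.46 (unadjusted p = 0.000153) without passing.

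On chromosome 13, Nnt and Tmem267 lie 78.8 kb apart and again moved in opposite directions. Nnt, the transhydrogenase of the inner mitochondrial membrane that supplies NADPH (119335527 to 119409257), lay between 18.4 and 21.1 CPM (median 19.6) in WT NMES. KlHET NMES mice ranged from 20.6 to 36.3 CPM (median 28.7), and only replicate 8 fell inside the WT NMES range. The difference was 0.52 ± 0.09 (1.43-fold, limma adjusted p = 0.00884) and 0.37 ± 0.09 in controls (adjusted p = 0.143). As background, mice of the C57BL/6J substrain carry a deletion within Nnt. Tmem267, a transmembrane protein of unknown function (119488086 to 119610459), fell from 22.4 to 44.9 CPM (median 33.6) in WT NMES to 14.9 to 24.0 CPM (median 20.1) in KlHET NMES, with WT NMES replicate 4 inside the KlHET NMES range. Its difference was -0.81 ± 0.15 (adjusted p = 0.0173) and -1.10 ± 0.15 in controls (adjusted p = 0.000281, both limma). Ccl28, a chemokine gene that lies 13.4 kb beyond Tmem267, was lower by -0.69 (limma unadjusted p = 0.00183). The gene 3110070M22Rik (119487257 to 119488384) was lower by -0.73 (limma unadjusted p = 0.000722). Its annotation overlaps that of Tmem267 at one end. With no stated strand, reads in the stretch they share cannot be told apart.

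Several of the called genes thus lay beside each other. Within 250 kb, 7 of the 15 had another called gene. All 15 together had 50 tested neighbours within 250 kb that were not called. Of these 50, 9 (18%) had an unadjusted p below 0.05, beside 4.27% of all genes. Chromosome 17 held 4 of the 15 and 748 of the 15400 genes tested. Trem2, at 48346401 to 48352276, lay far outside its block. Chromosomes 10, 13 and 15 held 2 each, of 737, 579 and 601 genes tested. The 2 on chromosome 10 lay further apart than 250 kb. The region of the disrupted gene held no called gene: within 20 Mb of Kl, 0 of 219 tested genes passed and 8 (3.65%) had an unadjusted p below 0.05.

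Gabra2, on chromosome 5 but far from Kl (70958392 to 71095849), encodes the alpha 2 subunit of the GABA-A receptor and is lowered by a small intronic deletion in C57BL/6J mice. In WT NMES it lay between 30.0 and 35.9 CPM. In KlHET NMES replicates 1, 3 and 8 stood at 35.0, 30.5 and 35.9 CPM, whereas the other 9 lay between 54.8 and 78.6 CPM. KlHET NMES mice therefore fell at separate levels, over which the mean difference was 0.79 ± 0.17 (1.73-fold, limma adjusted p = 0.0483). In controls the difference was 0.99 ± 0.17 (adjusted p = 0.00466). Of 28 tested glutamate and GABA-A receptor genes, Gabra2 alone passed after NMES (median -0.02), where 0.0584% of all genes passed higher.

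The other called genes showed more graded levels. Tmem230, a vesicle protein linked to Parkinson disease in humans (chromosome 2, 132239492 to 132249059), lay between 17.2 and 20.54 CPM in WT NMES and between 20.03 and 28.6 CPM in KlHET NMES. Its difference was 0.34 ± 0.07 (limma adjusted p = 0.0411) but only 0.04 ± 0.07 in controls, where WT brains held 20.7 to 22.6 CPM. The change with stimulation had an unadjusted p of 0.00422 and did not pass. Cfap54, a component of motile cilia (chromosome 10, 92775609 to 93083487), ranged from 1.87 to 3.10 CPM in WT NMES and from 2.39 to 14.4 CPM in KlHET NMES, a difference of 1.27 ± 0.27 (adjusted p = 0.0483). It passed in controls as well (1.49 ± 0.27, adjusted p = 0.0124), while the 12 markers of ependyma and motile cilia had 0 passed and a median of 0.20 after NMES. A930033H14Rik, whose annotation overlaps Rhobtb1 on chromosome 10 (69209762 to 69213098), was higher by 1.03 ± 0.22 (adjusted p = 0.0463). The long non-coding RNA 2610035D17Rik (chromosome 11, 113043906 to 113201838) fell from a median of 17.0 CPM in WT NMES to 11.7 CPM in KlHET NMES, a difference of -0.49 ± 0.10 (adjusted p = 0.0463).

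Of the 15 genes, 13 had the same sign in control mice, 11 of them at an unadjusted p below 0.05, and 7 passed there too. These 7 were Tmem181b-ps, Dynlt1b, Tmem181c-ps, A930033H14Rik, Gabra2, Cfap54 and Tmem267. Itgam lay near 0 on the log2 scale in controls, at 0.00. The other 4 genes that passed in controls did not pass after NMES and had smaller differences of the same sign after NMES, from 0.26 for the flippase Atp10d and -0.34 for the phosphatase Ptp4a3 (limma adjusted p = 0.092) to -0.12 for the chromatin protein Hmgb1.

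**Figure D4:**
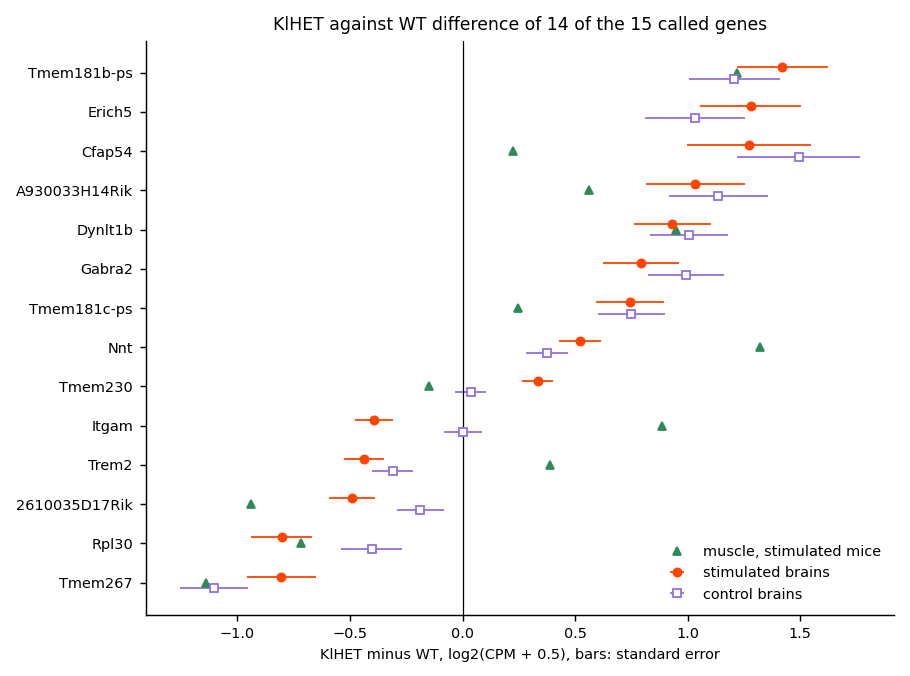
Log2 difference between KlHET and WT for 14 of the 15 called genes, in stimulated brain (filled circles), control brain (open squares) and muscle of the stimulated mice (triangles, 12 genes), with SE bars for brain. Itgam lies at -0.39 in stimulated brain and near 0 in control brain, whereas Tmem181b-ps lies at 1.42 and 1.21.

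Muscle of the same mice was read as a second tissue. There 2584 of 13505 tested genes passed between KlHET NMES and WT NMES (19.1%). Of the 15 genes called in brain, 13 were tested in muscle, 9 had the same sign and 6 passed with that sign, which were Tmem181b-ps, Nnt, Dynlt1b, Rpl30, Tmem267 and 2610035D17Rik. Nnt was higher in muscle by 1.32 ± 0.30 (limma adjusted p = 0.00286), with 14.01 to 24.7 CPM in WT NMES and 14.7 to 117 CPM in KlHET NMES mice. KlHET NMES replicate 8, the lowest of its group in brain, was also the lowest in muscle. Itgam went the other way, higher in muscle by 0.88 ± 0.29 (adjusted p = 0.0312). Trem2 lay at or below 1.41 CPM in every stimulated muscle, and its difference there was 0.39 ± 0.24 (adjusted p = 0.254).

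Several genes fell at separate levels within the KlHET NMES group, and the same mice stood at the same level in both tissues. Wdfy1, an endosomal protein, lay between 11.4 and 14.2 CPM in WT NMES brains. In KlHET NMES brains replicates 1, 3 and 6 stood at 12.1, 12.2 and 12.3 CPM, and the other 9 lay between 33.1 and 68.8 CPM. In muscle these 3 mice were again the lowest of their group, at 8.36, 8.66 and 6.55 CPM, where the others reached 14.7 to 30.9 CPM. The mean brain difference of 1.33 ± 0.34 did not pass (limma adjusted p = 0.211), and the SD of log2 CPM was 0.893 in KlHET NMES and 0.102 in WT NMES brains. Rpl29, a ribosomal protein, lay at 55.4 to 69.7 CPM in WT NMES, whereas KlHET NMES replicates 5, 7, 8 and 11 held 55.9 to 67.5 CPM and the other 8 held 29.9 to 36.5 CPM (mean difference -0.68 ± 0.17, adjusted p = 0.211).

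Pttg1, the securin that holds sister chromatids together, was singled out after its values were seen. It stood at 1.08 and 0.616 CPM in brain of KlHET NMES replicates 4 and 9 and between 18.2 and 29.1 CPM in the other 10, and in muscle at 2.11 and 4.58 CPM against 51.2 to 77.6 CPM. Across the 12 KlHET NMES mice, the Pearson correlation of brain with muscle log2 CPM was 0.972 for Wdfy1, 0.948 for Rpl29, 0.973 for Pttg1, 0.874 for Tmem267 and 0.721 for Nnt. Over 12737 genes measured in both tissues the median was 0.05, and 87 genes (0.683%) lay above 0.8. Other called genes had lower values, with 0.44 for Trem2, 0.38 for Tmem230, 0.365 for Rpl30, 0.29 for Tmem181b-ps, 0.06 for Itgam, 0.00 for Tmem181c-ps and -0.03 for Dynlt1b. These correlations are descriptions over 12 mice whose tissues were sequenced in separate tables.

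**Figure D5:**
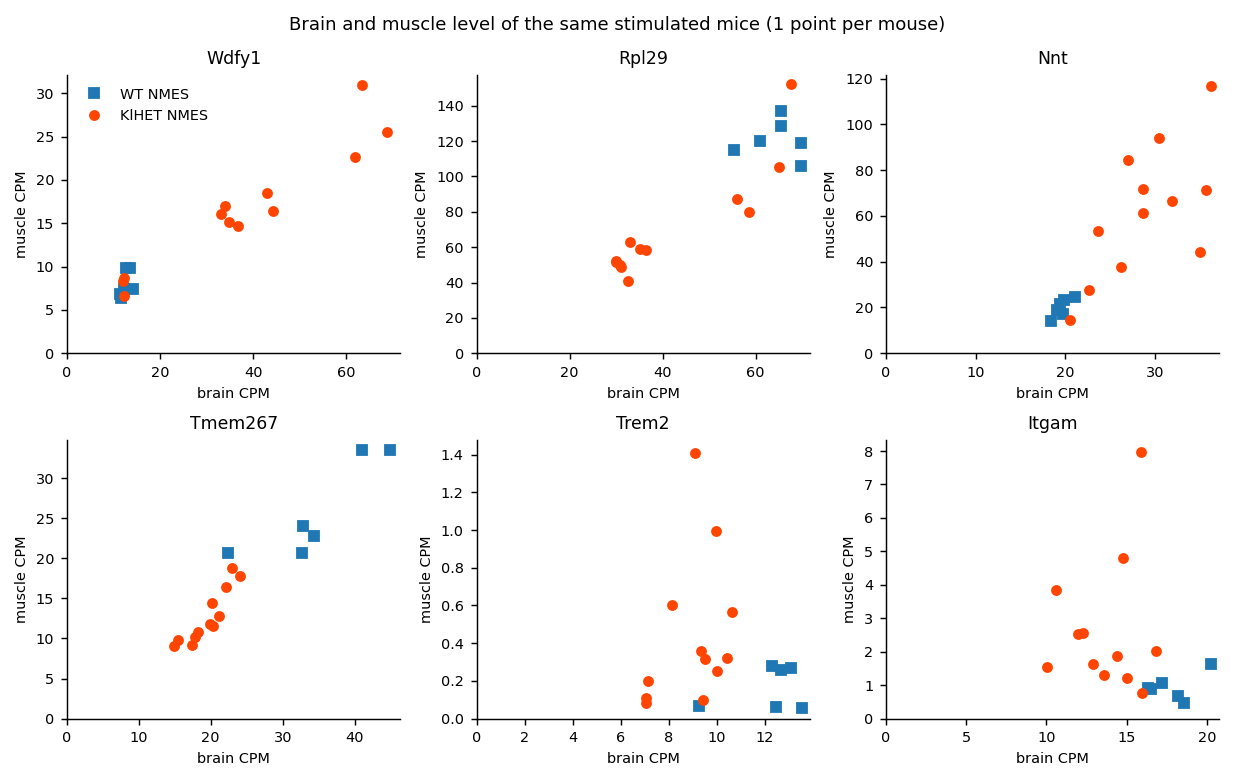
Brain against muscle CPM in the 18 stimulated mice, on linear axes from 0 with 1 point per mouse (squares WT NMES, circles KlHET NMES), for Wdfy1, Rpl29, Nnt, Tmem267, Trem2 and Itgam. KlHET NMES replicates 1, 3 and 6 lie with the WT NMES mice for Wdfy1 in both tissues, near 12.1 to 12.3 CPM in brain, while Trem2 shows no such split.

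Rpl30 was the 1 cytosolic ribosomal protein of 78 tested that passed after NMES, where 0.039% of all genes passed lower. Of the 78, 64 were below 0 (median -0.09), and 7 were lower at an unadjusted p below 0.05 (2.18% of all genes), with 0 higher. In controls 66 were below 0 (median -0.12) and 13 were lower at an unadjusted p below 0.05 (5.66% of all genes). Rpl3 gave -0.93 ± 0.27 (limma adjusted p = 0.44), with 9.51 to 32.2 CPM in WT NMES and 3.65 to 16.9 CPM in KlHET NMES, and Rpl34 gave -0.81 ± 0.23 (adjusted p = 0.429). Summed ribosomal protein CPM overlapped, from 2618 to 3427 in WT NMES and from 2496 to 3371 in KlHET NMES libraries. The 55 ribosome biogenesis genes were centred on 0 (median 0.00), with 0 passed.

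Transcripts of the mitochondrial genome were below 0 for 13 of 13 genes after NMES (median -0.32), 0 passed, and ND5 (-0.38 ± 0.19) and ND6 (-0.32 ± 0.14) had an unadjusted p below 0.05. The 33 tested nuclear genes of the respiratory chain had a median of -0.02 with 0 at an unadjusted p below 0.05. In controls the order was reversed. There 8 of the 13 mitochondrial genes were above 0 (median 0.01). Of the 33 nuclear genes 32 were below 0 in controls (median -0.11). Among them 11 were lower at an unadjusted p below 0.05, beside 5.66% of all genes, and 0 passed. The share of reads from mitochondria varies with the library, as given above, and its part in these values was not tested.

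For other pathways the differences were small. No gene passed in the lists for p53 and apoptosis (24 tested, median 0.03), Wnt signalling (31, median 0.01), ubiquitin ligases and proteasome (34, median 0.00), the integrated stress response (27, median 0.04), immediate early genes (22, median 0.05) or the circadian clock (18, median 0.01). Of the 7 tested genes of Klotho and its receptors, 0 passed. The sheddase Adam17, which releases membrane Klotho, was 0.17 ± 0.06 (unadjusted p = 0.0107), and Fgfr1, Fgfr2 and Fgfr3 lay between -0.02 and 0.01. Trem2 and Itgam, which passed lower, are among the 12 genes that the study named for this comparison. Those were chosen on these samples and are no independent evidence of direction. Wwox, an oxidoreductase linked to apoptosis, was 0.51 ± 0.17 (adjusted p = 0.679), with 22.4 to 29.5 CPM in WT NMES and 23.5 to 64.5 CPM in KlHET NMES brains. The high values came from replicates 2, 3, 4 and 8, at 57.7, 47.5, 57.8 and 64.5 CPM, and the other 8 held at most 35.2 CPM.

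Markers of other brain cells followed. No marker passed among 15 of astrocytes (median 0.01), 16 of excitatory cortical neurons (0.03), 15 of interneurons (-0.01) or 18 of endothelium (0.06). Oligodendrocyte markers were above 0 for 14 of 16 (median 0.10), with 0 passed. The widest medians were those of olfactory bulb (-0.86, 8 of 8 below 0, 0 passed) and choroid plexus (0.53, 14 of 15 above 0, 0 passed). In controls they were -0.54 (8 of 8 below 0) and 0.60 (14 of 15 above 0). The part of dissection in these shifts was not tested.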

How the data were processed

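Total RNA of brain and muscle was sequenced (NovaSeq X Plus, paired ends). The authors used Rsubread with the mm10 genome, org.Mm.eg.db for gene names and edgeR 4.0.16 for counts. The deposited values are CPM, made by the authors by dividing the reads of a gene by the library total. The deposited tables also hold a log2 average of the authors, which was not used, and 0 value columns lacked a sample. Every CPM value was a whole multiple of 1 read (100% within 1e-06), so reads and depth were recovered.

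Genes were tested mainly by limma 3.58.1 under R 4.3.3 (trend, robust, 2-sided) on log2 of TMM-scaled CPM + 0.5, with 4 group means over all 36 brain libraries and the 15400 genes that passed edgeR's count filter. P-values were adjusted by Benjamini-Hochberg, threshold 0.05. They measure the spread between separate mice. Muscle (13505 genes) was fitted alike and apart. Kl was compared by exact permutation. Alternatives were edgeR quasi-likelihood, DESeq2 1.42.0, voom, other scalings, pseudocounts and covariates, and leaving out each library. The limma fit was tested on simulated reads with the same dispersion for every gene and no differences in regional content. That test does not cover the spread of these libraries. Named genes were Kl, every gene that passed (or those of smallest p to reach 8 in a direction, given as not passed), the genes named by the study, and up to 4 members of each list of smallest p and 3 of highest level. The comparison, the lists and the named genes were chosen with earlier results of these data known. Positions are from RefSeq (GRCm38.p6), matched for 15312 of 15431 brain genes. Plasma RNA was not analysed here, and 1 called gene and 1 marker are counted but not reported singly.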

Additional observations from a re-analysis of the deposited data

Results flagged for a closer look

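Within the WT NMES group, 1 of 6 libraries stood apart from the rest for 4 of the 16 genes examined (the 15 called genes and Kl), by a gap to its nearest neighbour of more than 0.625 of the range of the group, which chance alone gives in about 1 in 20 groups. For Trem2, replicate 3 was the lowest at 9.24 CPM (gap 0.705 of the range), below the other 5 WT NMES libraries and inside the range of KlHET NMES. For 2610035D17Rik, replicate 5 was the lowest at 12.9 CPM (0.639). For Tmem181c-ps, replicate 2 was the highest at 5.97 CPM (0.64). For Gabra2, replicate 1 was the highest at 35.9 CPM (0.629). These were 4 different libraries, and each value lay on the side of its group nearer to the KlHET NMES mean.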

How the results depend on the processing

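No paired analysis was possible because the labels give animal identifiers and no replicate numbers shared between the groups. Beside 15 called genes, 32 passed with DESeq2 (21 higher, 11 lower), 34 with voom (14 and 20), 27 with region scores as covariates (14 and 13), 3 with only the 2 groups compared in the fit (Tmem181b-ps, Dynlt1b and Tmem267) and 1 (Tmem181b-ps) with the microglia score as a covariate. The other 8 alternatives gave 11 to 16. All 15 passed with DESeq2 and voom. In controls, 11 became 56 (DESeq2), 67 (voom) and 3 (only the 2 groups), and the 6 genes shared with muscle became 11, 11 and 3. The interaction gave 0 throughout.

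Leaving out 1 library gave 3 to 16 called genes. Outside 1.5 times were WT NMES replicates 6 (3), 1 (4), 4 (6), 2, 3 and 5 (7 each), KlHET NMES replicates 11 (6), 2, 6 and 10 (7 each), 1 and 12 (8 each) and 8 (9), WT control replicates 5 and 6 (7 each), 1, 3 and 4 (9 each) and KlHET control replicates 3 and 8 (9 each). In controls the count ran from 4 to 19 (KlHET control replicate 1 gave 19, WT control replicates 2, 3 and 5 gave 7 and 6 gave 4), and the overlap with muscle from 3 to 6 (3 without WT NMES replicate 1 or 6). Tmem181b-ps, Nnt and Rpl30 passed in all 36 fits, but Nnt and Rpl30 missed the threshold with only the 2 groups. Trem2 missed the threshold in 13 of the 36 (without any WT NMES library but replicate 3, KlHET NMES replicates 1, 2, 3, 6, 8 or 11, or WT control replicates 5 or 6; adjusted p 0.00873 to 0.142) and Itgam in 23 (without any WT NMES or WT control library, KlHET control replicates 1, 3, 8 or 12, or KlHET NMES replicates 5, 6, 8, 9, 10, 11 or 12; 0.0122 to 0.228). Erich5 missed it without WT NMES replicate 6, Dynlt1b without 1 or 6 and Tmem267 without 1, 2 or 6, and another 6 called genes missed it in 10 to 29 fits. Trem2 also missed it with only the 2 groups (adjusted p = 0.188), with region scores (0.0707) and without the libraries above 100 CPM of Ttr (0.0956). Itgam missed it with only the 2 groups (0.285), total-count scaling (0.0506) and without these libraries (0.0596). No called gene changed sign.

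Kl changed sign without passing with a pseudocount of 2 (0.036) and when 1 library was left out (-0.24 to 0.13). Without the libraries above 100 and above 10 CPM of Ttr it was -0.78 and -0.64. Depth limits Erich5 (0 to 11 reads in WT NMES), and the cause of the other changes was not tested.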
